A study of Mus musculus with 6 samples.

Results

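The genes described here are 5 genes of cytotoxic lymphocytes, namely Gzma, Gzmb, Prf1, Nkg7 and Klrd1, measured by RNA sequencing in helper (CD4+) T cells of the mouse. They were found by symbol among the 13177 RefSeq accessions of the deposited count table, where each matched 1 accession, and all 5 had enough counts to enter the fit across the table. The genes were chosen by name, for their function, with their counts in these libraries already known. Their differences between groups are therefore given as a description, with no test.

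The first group held 3 libraries collected 8 h after cells received a synthetic miR-155 oligonucleotide. This microRNA is induced in lymphocytes upon activation. The second held 3 control libraries labelled as zero hour. The treatment label names the miR-155 oligonucleotide in both groups, and no library was collected at 8 h without it, so the time and the oligonucleotide cannot be told apart. Cells were purified with a magnetic CD4+ isolation kit. The descriptions of the 8 h libraries call the cells CD5+, whereas their source label and the description of the controls call them CD4+. Strain, age and sex of the mice are not given in the labels. Separate animals or cultures behind the replicates are not stated either, so any p-value measures only the spread between these libraries, which may be technical.

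Cytotoxic lymphocytes kill by releasing granules. Perforin, encoded by Prf1, forms pores through which granzymes, the serine proteases of the granule, enter the target cell. Granzyme B (Gzmb) cleaves after aspartate and activates caspases, and granzyme A (Gzma) is a trypsin-like protease that cleaves after basic residues. Nkg7 encodes a membrane protein of the granule that takes part in its release, and Klrd1 encodes CD94, the chain that pairs with the NKG2 receptors of natural killer (NK) cells. NK cells and CD8+ T cells are the main users of this machinery, and some activated CD4+ T cells use it too.

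Summed counts ranged from 6243803 to 13675127 in the 8 h libraries and from 4564010 to 12303358 in the controls. The 100 most abundant accessions took 58.3% to 60.7% of counts at 8 h and 57.7% to 68.6% in the controls. Some transcripts that nearly all cells hold in abundance were almost missing, with Actb at 3 to 5 counts at 8 h and 1 to 4 in the controls, and Gapdh at 1 to 11 counts at 8 h and 2 in each control. It is therefore uncertain that a row holds the ordinary count of its gene, and each level and fold below carries that limit. Cd4, the defining marker of the labelled cells, had 5 to 9 counts at 8 h and 6 to 10 in the controls, whereas Cd5 had 5716 to 27651 counts at 8 h and 3020 to 14876 in the controls. Levels are given in CPM, the count as a share of the library's total, in parts per 1000000, after TMM scaling, a scaling for differences in composition between libraries.

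The 2 strands of miR-155, the microRNA transferred, are shown as RefSeq gives them for GRCm38.p6, since a target transcript is recognised through the seed, bases 2 to 8, in capitals. The labels do not give the sequence of the oligonucleotide itself.
mmu-miR-155-5p: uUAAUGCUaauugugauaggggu
mmu-miR-155-3p: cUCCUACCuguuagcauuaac
The match to the first seed, AGCATTA, occurred in the longest annotated 3' UTR of 8.66% of 12581 genes of the table (GENCODE M21), and the match to the second, GGTAGGA, in 7.27%. In the 3' UTRs of the 5 genes, which were 67 bases long in Gzma, 152 in Nkg7, 335 in Klrd1, 581 in Gzmb and 751 in Prf1, 0 matches to either were found.

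RefSeq's promoter table (GRCm38.p6) gave a window of 250 bases before a transcript start for 4 of the 5 genes, and Klrd1 had no entry. The windows of Gzma, Gzmb and Nkg7 end at the outer bound of the gene. The start used for Prf1 lies 85 bases inside the bound of that gene, so only the 165 bases before the bound are shown. They are shown because the genes are described together and because Runx, AP-1 and CREB factors are known regulators of Gzmb or of other granule genes. Capitals mark 3 motifs searched on both strands, the Runx core TGTGGT, the AP-1 site TGANTCA and the CRE half-site TGACGT, which did not overlap each other.
Gzma (chr13:113100982-113101231, minus strand): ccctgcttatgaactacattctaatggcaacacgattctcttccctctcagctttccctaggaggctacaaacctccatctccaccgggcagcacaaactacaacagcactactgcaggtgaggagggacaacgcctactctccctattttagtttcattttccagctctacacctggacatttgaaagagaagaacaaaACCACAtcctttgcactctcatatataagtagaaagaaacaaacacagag
Gzmb (chr14:56262335-56262584, minus strand): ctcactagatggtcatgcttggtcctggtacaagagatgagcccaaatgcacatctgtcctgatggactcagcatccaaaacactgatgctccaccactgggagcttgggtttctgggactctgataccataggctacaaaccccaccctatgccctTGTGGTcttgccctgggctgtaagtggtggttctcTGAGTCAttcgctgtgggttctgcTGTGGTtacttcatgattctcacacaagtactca
Prf1 (chr10:61297586-61297750, plus strand): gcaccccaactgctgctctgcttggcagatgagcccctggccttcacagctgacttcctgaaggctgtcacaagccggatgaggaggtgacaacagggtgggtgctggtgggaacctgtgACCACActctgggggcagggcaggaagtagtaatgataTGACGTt
Nkg7 (chr7:43436888-43437137, plus strand): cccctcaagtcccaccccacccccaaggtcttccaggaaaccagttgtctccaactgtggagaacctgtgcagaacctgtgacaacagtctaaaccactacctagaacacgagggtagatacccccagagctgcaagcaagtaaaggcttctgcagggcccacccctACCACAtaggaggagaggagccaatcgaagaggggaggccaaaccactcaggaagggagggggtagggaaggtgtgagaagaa
The Runx core was found in each of the 4 windows, against 14.2% of 27025 windows of the same length. Counted from the outer bound of the gene, it began 50 bases before it in Gzma, 45 in Prf1, 83 in Nkg7, and both 93 and 34 in Gzmb. The AP-1 site was found in Gzmb only of the 4, 58 bases before the bound, against 6.87% of all windows, and the CRE half-site in Prf1 only, 7 bases before it, against 6.56%. The other motifs searched are not marked. The T-box letters GTGTGA were found in Gzmb and Nkg7 (12.2% of all windows), the Ets letters GGAAGT in Prf1 (20.0%) and the Stat letters TTCNNNGAA in Nkg7 (7.18%). The motifs were chosen from background knowledge with the sequences in view, and a match is a description of letters, not of a bound site.

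Among the granzymes, the groups lay apart for Gzma and overlapped for Gzmb. Gzma (chromosome 13, 113093824 to 113100981, GRCm38) was lower in each 8 h library than in each control. Its level was 46.0, 22.8 and 9.25 CPM in the 8 h libraries 1 to 3, from 398, 307 and 65 counts, against 75.9, 213 and 908 CPM in controls 1 to 3, from 430, 1090 and 10104 counts. The groups did not overlap, and control 3 was the highest library while 8 h replicate 3 was the lowest. The group means were 26.0 ± 18.6 CPM at 8 h and 399 ± 446 CPM in controls (SD, n = 3 each). The log2 fold change was -3.94 ± 2.18 (SE, edgeR). It was -2.45 without control 3 and -4.64 without 8 h replicate 1.

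Gzmb (chromosome 14, 56258836 to 56262334) had a log2 fold change of the same sign. Its level was 220, 354 and 80.5 CPM in the 8 h libraries, against 4478, 1036 and 23.9 CPM in the controls. The highest and the lowest of all 6 values were thus both controls, the first replicate with 25368 counts and the third with 266. An 8 h library was lower than a control in 6 of 9 pairings. The group means were 218 ± 137 CPM at 8 h and 1846 ± 2335 CPM in controls (SD, n = 3 each). The log2 fold change was -3.08 ± 2.35 (SE, edgeR). Without control 1 it was -1.25, and with the replicate number as a block in the fit it was -1.44.

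Prf1, the pore-forming partner of both proteases (chromosome 10, 61297751 to 61304684), had 0.808, 4.15 and 1.28 CPM in the 8 h libraries, against 38.8, 0.978 and 90.8 CPM in the controls. These levels came from 7, 56 and 9 counts at 8 h and from 220, 5 and 1010 counts in the controls. Controls 1 and 3 stood above every 8 h library, while control 2 lay between the 8 h values. The log2 fold change was -4.37 ± 1.94 (SE, edgeR), the lowest of the 5 genes, on means of 2.08 ± 1.81 CPM at 8 h and 43.5 ± 45.1 CPM in controls (SD, n = 3 each). It was -3.21 without control 3 and -2.94 in limma-voom, a fit on log values.

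Nkg7, the granule membrane protein (chromosome 7, 43437138 to 43438246), had 10.4, 32.3 and 130 CPM in the 8 h libraries, against 116, 25.6 and 1661 CPM in the controls. Control 3, with 18478 counts, was the highest library, and 8 h replicate 3 lay above both other controls. The group means were 57.5 ± 63.5 CPM at 8 h and 601 ± 919 CPM in controls (SD, n = 3 each). The log2 fold change was -3.38 ± 2.20 (SE, edgeR) with all libraries and -0.28 without control 3, so that this 1 library held most of the difference. Without 8 h replicate 3 it was -4.80.

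Klrd1, the receptor chain (chromosome 6, 129588092 to 129598775), had 11.7, 1.26 and 4.84 CPM in the 8 h libraries, against 39.7, 5.48 and 18.9 CPM in the controls. The counts were 101, 17 and 34 at 8 h and 225, 28 and 210 in the controls. An 8 h library was lower than a control in 8 of 9 pairings, the exception being 8 h replicate 1 against control 2. The log2 fold change was the smallest in size of the 5 genes, -1.84 ± 1.75 (SE, edgeR), on means of 5.92 ± 5.29 CPM at 8 h and 21.4 ± 17.3 CPM in controls (SD, n = 3 each). It was -1.07 without control 1 and -2.79 without 8 h replicate 1.

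**Figure D1:**
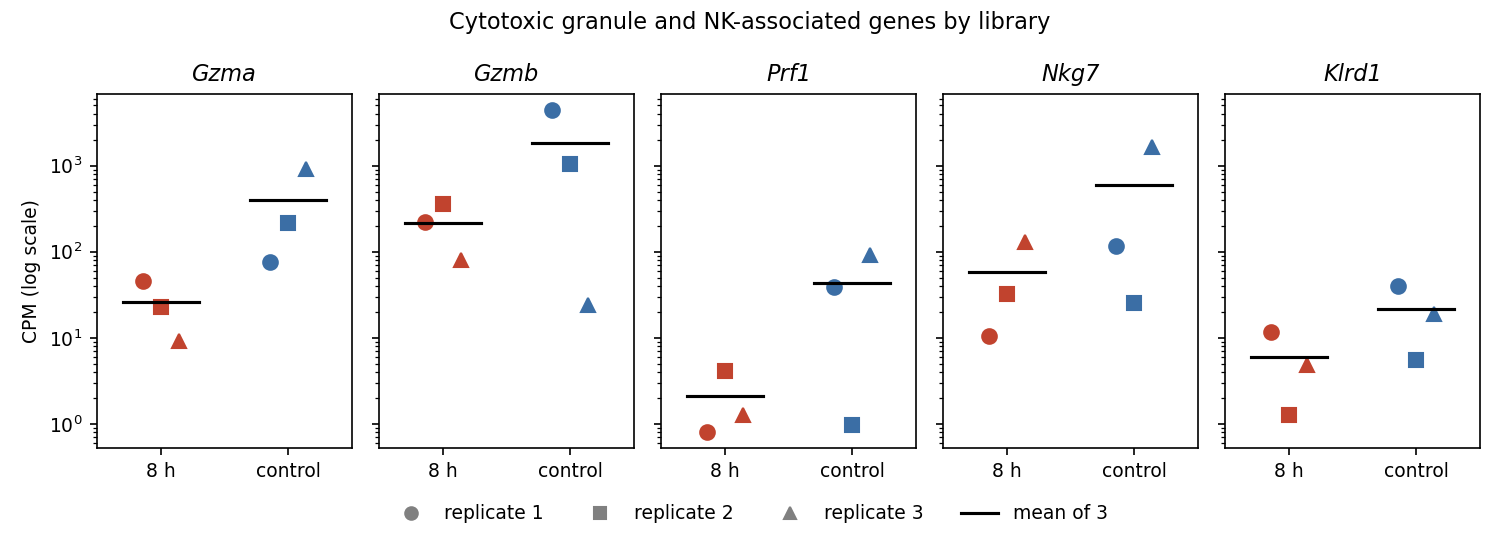
Level of each of the 5 genes in CPM (log axis) in the 3 libraries collected at 8 h and the 3 controls, with 1 symbol per replicate number and a bar at the group mean. The groups are apart for Gzma only, where 8 h libraries lie at 9.25 to 46.0 CPM and controls at 75.9 to 908 CPM.

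Set beside the whole table, edgeR's quasi-likelihood test called 0 of the 5 genes at an adjusted p under 0.05, where it called 0% of 8308 tested accessions in either direction (709 had an unadjusted p under 0.05). As an alternative, the Wald test of DESeq2 called Gzma and Prf1 lower at 8 h, where it called 3.11% of 6588 accessions lower and 2.94% higher. Groups without overlap were found for 1 of the 5 genes, lower at 8 h, where 5.08% of tested accessions were lower and 5.72% higher in that way. The median log2 fold change was -3.38 over the 5 genes and 0.06 over all tested accessions. Of the 8308 tested accessions, 4263 had a positive log2 fold change and 4045 a negative one. Because the genes were chosen with this contrast known, nothing is read from these counts. In bulk RNA of this kind, fewer cells of a type and less RNA per cell cannot be told apart.

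The 5 genes together took 0.0292%, 0.0409% and 0.0254% of the counts of the 8 h libraries 1 to 3, against 0.417%, 0.143% and 0.244% in controls 1 to 3. The mean share was 0.0318 ± 0.00807% at 8 h and 0.268 ± 0.138% in controls (SD, n = 3 each). The summed share was thus lower in each 8 h library than in each control, but different genes made up the sum in different libraries. Gzmb made up 76.1%, 85.4% and 35.7% of the summed counts in the 8 h libraries, against 94.3%, 80.8% and 0.885% in the controls. Nkg7 made up 57.5% in 8 h replicate 3 and 61.5% in control 3, and at most 7.80% in the other 4 libraries. Gzma made up 4.10% to 15.9% at 8 h and 1.60% to 33.6% in the controls, and Prf1 and Klrd1 at most 4.04% in any library.

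**Figure D2:**
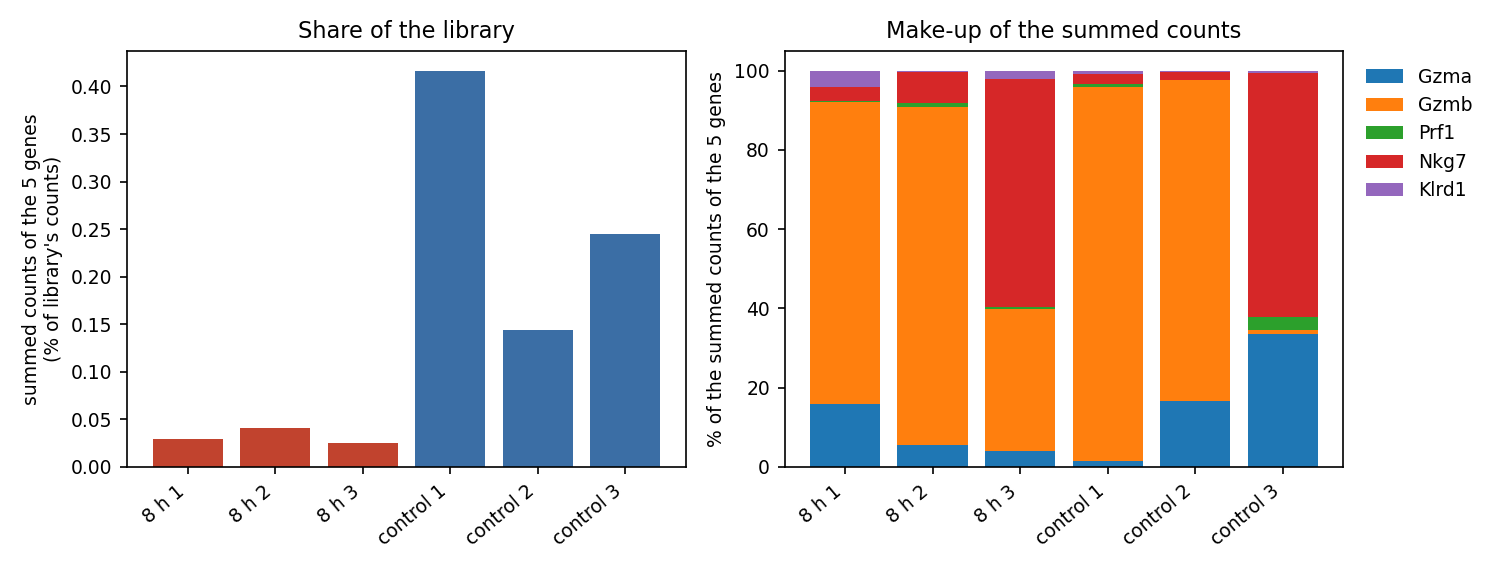
Left, summed counts of the 5 genes as a percentage of all counts of each library; right, the make-up of that sum, 1 bar per library. The 8 h libraries have sums of 0.0254% to 0.0409% and the controls 0.143% to 0.417%, and Gzmb is the largest part in 8 h replicates 1 and 2 and controls 1 and 2, Nkg7 in 8 h replicate 3 and control 3.

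Ratios between 2 genes of the same library do not depend on any scaling. The count of Gzmb over that of Gzma was 4.78, 15.6 and 8.71 in the 8 h libraries, against 59.0, 4.86 and 0.0263 in the controls. In 5 libraries Gzmb therefore outnumbered Gzma, and in control 3 the order was turned, with 10104 counts of Gzma and 266 of Gzmb. Gzmb over Prf1 was 272, 85.3 and 62.9 in the 8 h libraries, against 115, 1058 and 0.263 in the controls. The 8 h libraries lay within the range of the controls for both ratios.

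Compared per kilobase of the longest linked GENCODE M21 transcript, the mean levels had the same order in both groups. Gzmb stood at 152 CPM per kilobase at 8 h and 1286 in controls, Nkg7 at 65.3 and 682, Gzma at 29.6 and 455, Klrd1 at 6.62 and 23.9, and Prf1 at 0.841 and 17.6. Single libraries departed from that order. In control 3 Nkg7 had 1886 CPM per kilobase and Gzma 1035, followed by Prf1 with 36.7, Klrd1 with 21.1 and Gzmb with 16.7. In control 1 Gzmb was the accession of rank 43 by count, and in control 3 Nkg7 was that of rank 88, out of 13177. Given the spread between libraries, neighbours in the order of means are not separated from each other in either group.

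The spread within a group was wider in the controls than at 8 h for 4 of the 5 genes. The highest value of Gzmb was 4.40 times the lowest at 8 h and 187 times in the controls, and for Prf1 the ratios were 5.14 and 92.8. They were 12.5 and 64.8 for Nkg7, 4.97 and 12.0 for Gzma, and 9.25 and 7.25 for Klrd1. The background was the 4271 tested accessions that averaged 100 counts or more, where the median ratio was 16.0 at 8 h and 15.4 in controls. All 5 genes were thus below the background median at 8 h, and Gzmb, Prf1 and Nkg7 were above it in the controls, where 9.60%, 14.8% and 19.0% of these accessions had a ratio at least as large.

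**Figure D3:**
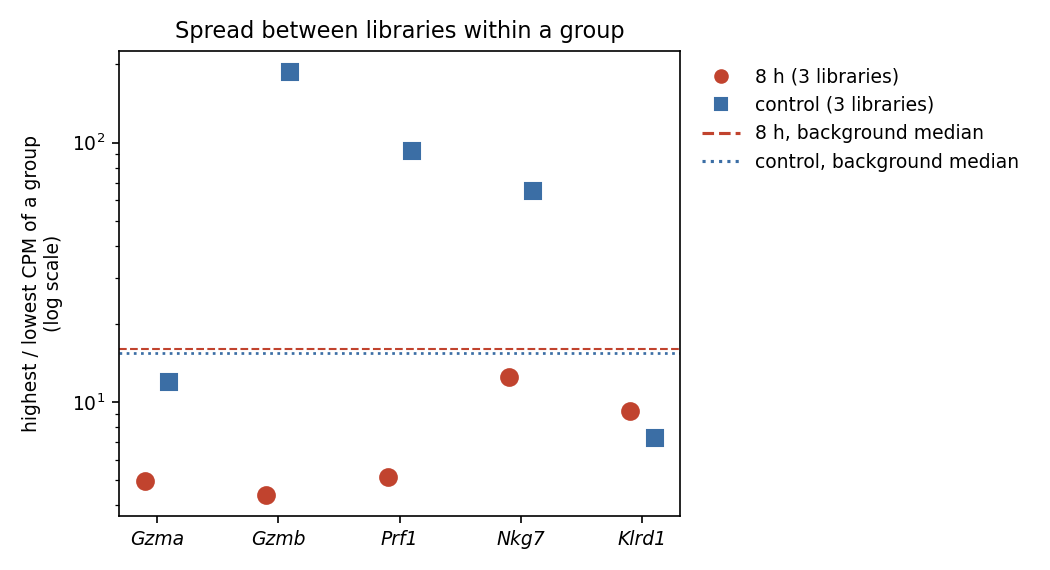
Highest over lowest CPM among the 3 libraries of a group (log axis) for each of the 5 genes, with dashed and dotted lines at the medians of the 4271 accessions that averaged 100 counts or more (16.0 at 8 h, 15.4 in controls). Control ratios of Gzmb (187), Prf1 (92.8) and Nkg7 (64.8) stand above the lines, and all 8 h ratios stand below them.

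Other granzymes did not share one direction. The 8 further granzyme genes listed were all matched, but only Gzmc, Gzme and Gzmf were tested, and 2 of these 3 had a positive log2 fold change. Gzme had 9.59, 16.4 and 0.284 CPM in the 8 h libraries, against 7.24, 3.13 and 1.35 CPM in the controls. Gzmf had 4.97, 2.23 and 0.711 CPM at 8 h, against 2.30, 0 and 17.4 CPM in the controls. Gzmc had 109, 100 and 0 counts in the 8 h libraries and 22, 0 and 5 in the controls. These genes lie with Gzmb in a run of 7 granzyme genes over 145 kb of chromosome 14, and their sequences are similar enough that the counting may have split reads between them. Gzmm, on chromosome 10, had enough counts in too few libraries to be tested, with 50, 1264 and 4 counts at 8 h against 1, 2 and 1 in the controls. Gzmk, the neighbour of Gzma on chromosome 13 at a distance of 70.7 kb, was not tested either and had 2, 0 and 1 counts at 8 h against 34, 4 and 65 in the controls. In CPM, Gzmk lay below every control in each 8 h library, and Gzmm lay above. Among tested accessions, 5.08% were lower and 5.72% higher without overlap. For both genes the gap rested on few counts. It was 2 in 8 h replicate 1 against 4 in control 2 for Gzmk, and 4 in 8 h replicate 3 against 2 in control 2 for Gzmm. Gzmk was named after its values were seen.

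Of 19 genes for granule biogenesis and release, 17 were matched and 9 tested, of which 7 had lower and 2 higher values at 8 h, and edgeR called 0 of them (0 at an unadjusted p under 0.05, and DESeq2 called 0). The median log2 fold change was -1.28. Srgn, the proteoglycan serglycin that packs granzymes, had 6472, 1393 and 8002 CPM at 8 h, against 2632, 10217 and 322 CPM in the controls, so its groups overlapped widely. Ctsc, the protease that activates progranzymes, had 53.5, 25.4 and 58.3 CPM at 8 h, against 179, 151 and 4.50 CPM in the controls. Ctsw, a cysteine protease of cytotoxic cells, was the only one of the 9 whose groups did not overlap. Lower groups without overlap were found for 5.08% of tested accessions. Ctsw had 1.96, 189 and 34.1 CPM at 8 h against 352, 292 and 373 CPM in the controls. Its log2 fold change was -2.17 ± 2.02 (SE), with -4.22 without 8 h replicate 2 and -1.58 without 8 h replicate 1. Cst7, cystatin F, an inhibitor of granule cathepsins, reached 1936 CPM in 8 h replicate 3 and 7333 CPM in control 1, with 10.2 to 169 CPM in the other 4 libraries. Its log2 fold change of -1.92 was 2.60 without control 1 and -6.62 without 8 h replicate 3.

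Of 3 granzyme inhibitors, all matched, 2 were tested, both lower at 8 h, and edgeR called 0 (0 at an unadjusted p under 0.05, and DESeq2 called 0). Serpinb9, the inhibitor of granzyme B, had 145, 5.49 and 4.55 CPM at 8 h, against 61.8, 181 and 32.7 CPM in the controls. A log2 fold change of -0.83 for Serpinb9 was -4.16 without 8 h replicate 1 and 0.12 without control 2. Serpinb6b, which inhibits granzyme A in the mouse, had 365, 123 and 87.1 CPM at 8 h, against 17.3, 16.6 and 2700 CPM in the controls. Its log2 fold change of -2.25 turned to 3.52 without control 3. Of 10 substrates and partners, all matched, 7 were tested, 5 higher and 2 lower at 8 h, and edgeR and DESeq2 each called 0 (edgeR 0 and DESeq2 1 at an unadjusted p under 0.05). Trex1, an exonuclease of the SET complex that granzyme A targets in human cells, had 3.70, 11.1 and 84.5 CPM at 8 h, against 5.83, 4.11 and 4.58 CPM in the controls. Its log2 fold change of 2.78 was 0.66 without 8 h replicate 3. Gsdme, a gasdermin that granzyme B cleaves, had 48.4, 5.49 and 7.82 CPM at 8 h, against 1.06, 25.4 and 0.899 CPM in the controls. For Gsdme a log2 fold change of 1.17 was -0.43 without 8 h replicate 1 and 4.37 without control 2. Dffa, an inhibitor of the caspase-activated DNase that granzyme B cleaves, had 7.04, 2.67 and 43.5 CPM at 8 h, against 34.4, 1.76 and 1.98 CPM in the controls, and its groups overlapped. Hmgb2, a chromatin protein of the SET complex, had 9.70, 3.12 and 1.56 CPM at 8 h, against 1.59, 2.94 and 23.9 CPM in the controls, with control 3 the highest library.

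Receptors and adaptors of NK cells, the gene group nearest to Klrd1, split evenly. Of 34 listed genes 27 were matched and 18 tested, 9 higher and 9 lower at 8 h, with a median log2 fold change of 0.09. By edgeR 0 passed (2 at an unadjusted p under 0.05). DESeq2 called 2 of the 12 with an adjusted p, Klrb1c and Klra3, both lower, where it called 3.11% of accessions lower. Groups without overlap were found for 2 of the 18 lower and 1 higher, where 5.08% of tested accessions were lower and 5.72% higher in that way. Klrb1c, which encodes the NK1.1 antigen, had 0, 24 and 1 counts at 8 h, against 124, 18 and 90 counts in the controls. A count of 0 in 8 h replicate 1 allows a level of up to 0.346 CPM, from 3 counts, which covers counting error only. Klra3, a Ly49 receptor, had 5, 17 and 0 counts at 8 h, against 108, 13 and 63 in the controls. Both had groups without overlap in CPM, with log2 fold changes of -4.05 ± 1.79 for Klrb1c and -3.82 ± 1.72 for Klra3 (SE, edgeR). That of Klrb1c was -7.04 without 8 h replicate 2 and -3.09 without control 1. In the other direction Slamf7, a receptor of NK cells and activated lymphocytes, had 132, 67.9 and 257 CPM at 8 h, against 14.3, 8.22 and 34.6 CPM in the controls, without overlap and with a log2 fold change of 3.00 ± 1.93 (SE, edgeR adjusted p = 0.666). Hcst, the adaptor DAP10, had 1.27, 47.1 and 109 CPM at 8 h, against 38.1, 17.4 and 74.6 CPM in the controls. Cd96, a receptor of T and NK cells, had 18.7, 65.7 and 11.8 CPM at 8 h, against 25.4, 18.4 and 1.53 CPM in the controls. Klra7 stood apart in 1 library, with 4390 counts in control 2 and at most 96 in any other. Klra and Klrb1 genes have close copies on chromosome 6, so their counts are uncertain. The partners of CD94, Klrc1 to Klrc3, had too few counts in most libraries to be tested and reached 597 counts for Klrc2 in 8 h replicate 1.

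Of the death ligands and effector cytokines, which act beside the granules, 7 were tested, 5 higher and 2 lower at 8 h. Over the whole table, 4263 of 8308 tested accessions were higher. None passed edgeR's test (0 of 7, 2 at an unadjusted p under 0.05). DESeq2 called 2 of the 6 with an adjusted p, Ifng and Lta, both higher, where it called 2.94% of accessions higher. Lta, lymphotoxin alpha, had 1994, 9.72 and 89.8 CPM at 8 h, against 2.47, 3.91 and 49.4 CPM in the controls, with a log2 fold change of 5.23 that was 1.40 without 8 h replicate 1. Ifng, interferon gamma, had 46.8, 31.7 and 47.4 CPM at 8 h, against 0.883, 1.57 and 3.42 CPM in the controls. It was the 1 gene of the 7 without overlap, where 5.72% of tested accessions were higher in that way. Its log2 fold change was 4.41 ± 1.95 (SE, edgeR adjusted p = 0.538), and 4.05 to 5.11 without each replicate. The chemokines Ccl4 and Ccl5, which are stored or released with granules in CD8+ T and NK cells, had negative log2 fold changes of -4.08 and -2.52. Ccl4 had 9.24, 53.9 and 2.70 CPM at 8 h, against 3.53, 39.1 and 1076 CPM in the controls, and its log2 fold change was 0.09 without control 3. Ccl5 had 9.47, 1.56 and 33.3 CPM at 8 h, against 5.83, 89.6 and 159 CPM in the controls, and its log2 fold change was -3.95 without 8 h replicate 3 and -1.66 without control 3. Fasl, the Fas ligand, had 26, 64 and 7 counts at 8 h, against 4, 5 and 3 in the controls, and was not tested. It was named after its values were seen.

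Among 10 transcription factors of the cytotoxic programme, 9 were matched and 7 tested, of which 5 had lower and 2 higher values at 8 h, with a median log2 fold change of -1.74. By edgeR 0 passed (1 at an unadjusted p under 0.05). DESeq2 called 1 of the 6 with an adjusted p, Nfil3, where it called 3.11% of accessions lower. Groups without overlap were found for 3 of the 7, all lower at 8 h, where 5.08% of tested accessions were lower in that way. Nfil3, a factor needed for NK cell development, had 77.8, 15.8 and 10.1 CPM at 8 h, against 4331, 188 and 4881 CPM in the controls, without overlap. Its log2 fold change was -6.50 ± 2.83 (SE, edgeR adjusted p = 0.535). Tbx21, or T-bet, which drives granule genes together with Eomes and Runx3, had 9.82, 36.7 and 11.8 CPM at 8 h, against 45.5, 96.7 and 52.5 CPM in the controls, also without overlap (log2 fold change -1.74 ± 1.77, SE). Runx3 had 8.08, 1.04 and 0.853 CPM at 8 h, against 87.7, 2.35 and 4.67 CPM in the controls. Its groups overlapped, and its log2 fold change of -3.24 was -0.11 without control 1. Bhlhe40, a factor induced by T cell activation, had the second highest mean level of the list, and its groups overlapped. It had 7.51, 2027 and 59.5 CPM at 8 h, against 13.6, 988 and 115 CPM in the controls, and replicate 2 was the highest in both groups. Its log2 fold change of 0.91 was -3.45 without 8 h replicate 2 and 3.44 without control 2. Zeb2, a factor of terminal effector cells, had 2.77, 1.78 and 79.2 CPM at 8 h, against 41.0, 3.13 and 75.7 CPM in the controls. For Zeb2 a log2 fold change of -0.51 was -4.12 without 8 h replicate 3 and 0.36 without control 3. Eomes had 28.3, 4.60 and 2.28 CPM at 8 h, against 0.706, 10.8 and 12.1 CPM in the controls. Prdm1, or Blimp-1, had 10.3, 1.56 and 4.27 CPM at 8 h, against 56.7, 20.7 and 28.0 CPM in the controls, without overlap, and was named after its values were seen.

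Over the 7 lists together, 53 of 83 matched genes were tested, 25 higher and 28 lower at 8 h, and their median log2 fold change was -0.21. By edgeR 0 of the 53 passed (5 at an unadjusted p under 0.05), and the lowest edgeR adjusted p was 0.535. DESeq2 called 2 higher and 3 lower of the 40 for which it gave an adjusted p, where it called 2.94% of accessions higher and 3.11% lower. Groups without overlap were found for 2 of the 53 higher and 6 lower, where 5.72% of tested accessions were higher and 5.08% lower in that way.

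**Figure D4:**
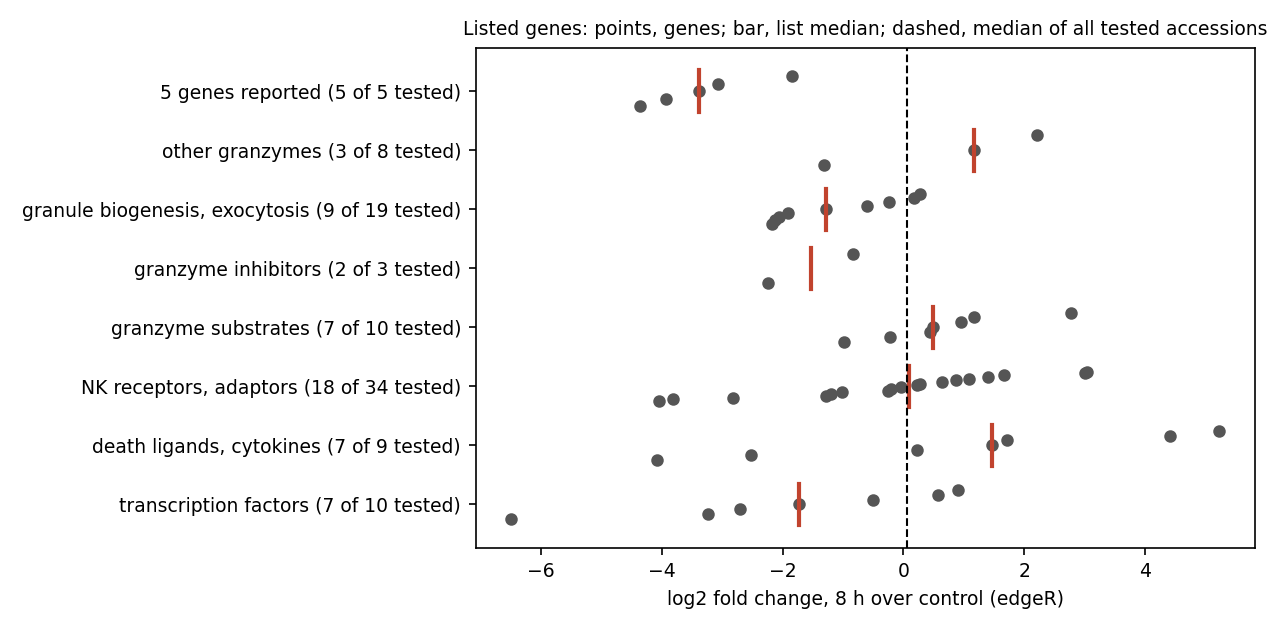
Log2 fold change of 8 h over control from edgeR for each tested gene of the 5 genes and 7 further lists (points, spread vertically in order of value), with a red bar at each list's median and a dashed line at the median of all tested accessions (0.06). The 5 genes lie between -4.37 and -1.84, while NK receptors and adaptors lie on both sides of 0 with a median of 0.09.

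NK cells and CD8+ T cells are the main carriers of these genes. Of 5 defining NK markers 4 were matched and tested, 3 with a positive log2 fold change. Their summed level was 46.4, 7.57 and 9.67 CPM in the 8 h libraries, against 23.0, 19.0 and 29.7 CPM in the controls. Only 8 h replicate 1 made the groups overlap, since the other 8 h libraries lay below every control. That library had the highest NK sum, while its sum of the 5 genes, 288 CPM, lay below every control. Without 8 h replicate 1 the log2 fold change of Ncr1 was -2.37 in place of 0.64, and that of Eomes was -1.18 in place of 0.57. At the other end, it was 1.42 for Ncr1 without control 3 and 1.06 for Eomes without 8 h replicate 3. The other marker with a positive value, Klra8, had 1.40 with all libraries. It stayed positive whichever replicate was left out, with 0.42 as the lowest value, without 8 h replicate 3. The part of the NK markers in the result was not tested. The only marker at 0 was Klrb1c, in 8 h replicate 1. Ncr1, the NKp46 receptor, had 141, 1 and 10 counts at 8 h, against 1, 22 and 76 in the controls. Of the CD8+ T cell markers, both matched and tested, Cd8a had 0.693, 4.60 and 10.2 CPM at 8 h, against 3.00, 5.48 and 1.71 CPM in the controls, and Cd8b1 had 59.0, 16.2 and 0.996 CPM at 8 h, against 12.0, 1.96 and 36.1 CPM in the controls. For Cd8a a log2 fold change of 0.61 was -0.29 without 8 h replicate 3 and 1.15 without control 2. For Cd8b1 one of 0.61 was -0.95 without 8 h replicate 1 and 1.88 without control 3. Summed, the CD8 markers overlapped between the groups, at 11.2 to 59.7 CPM at 8 h and 7.44 to 37.8 CPM in the controls. T cell markers, with 8 of 8 matched, summed to 3884 to 12117 CPM at 8 h and 3304 to 18826 CPM in the controls.

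Of the 8 marker lists, the summed level of 1 lay below all controls in each 8 h library. Among single tested accessions, 5.08% were lower and 5.72% higher at 8 h without overlap. Erythroid markers, with 4 of 5 matched, summed to 3.56 to 21.8 CPM at 8 h and 28.8 to 107 CPM in the controls. Alas2, a haem synthesis enzyme among them, had 0, 1 and 0 counts at 8 h, against 13, 42 and 17 in the controls. Hba-a1, also of this list, had 10, 26 and 1 counts at 8 h, against 54, 7 and 4 in the controls, so its groups overlapped. The part of this list in the result was not tested. Markers of mast cells and basophils, some of which also hold granzymes, summed to 10.5 to 40.8 CPM at 8 h and 18.3 to 32.7 CPM in the controls. Plasmacytoid dendritic markers, with 3 of 4 matched, summed to 9.96 to 288 CPM at 8 h and 12.5 to 30.0 CPM in the controls. B cell markers summed to 34.8 to 96.9 CPM at 8 h and 24.4 to 83.2 CPM in the controls. Among them Ms4a1, or CD20, had 37.4, 42.6 and 29.4 CPM at 8 h, against 3.71, 2.94 and 2.70 CPM in the controls. DESeq2 called it higher, 1 of the 4 B cell markers, where it called 2.94% of accessions higher. Myeloid markers summed to 1.48 to 12.6 CPM at 8 h and 1.94 to 45.8 CPM in the controls.

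**Figure D5:**
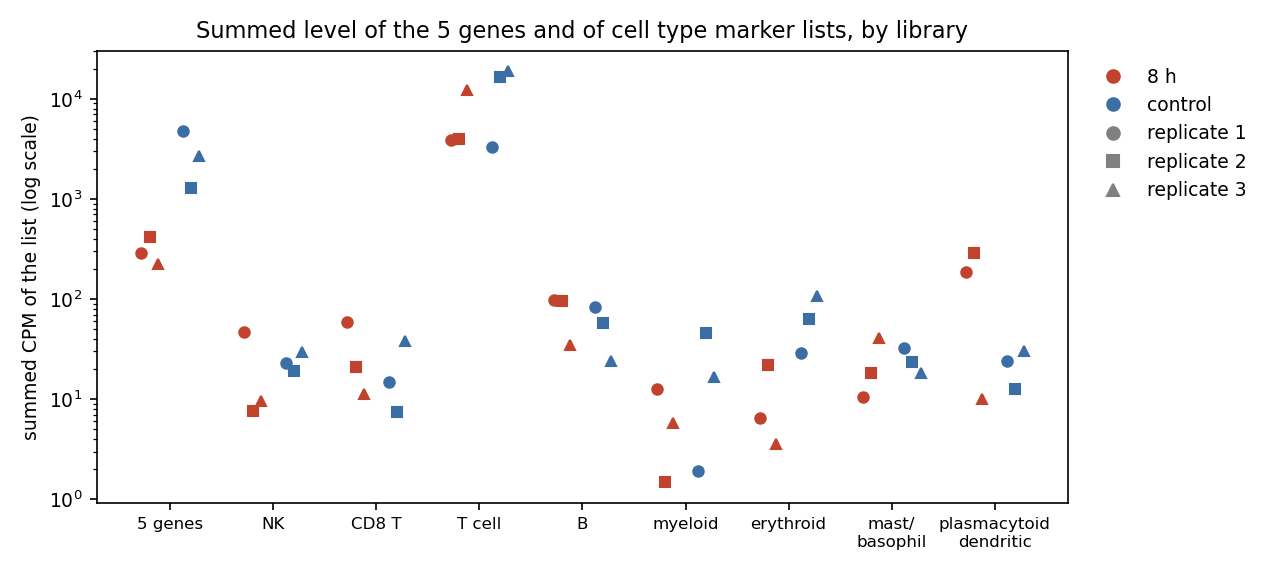
Summed CPM (log axis) of the 5 genes and of 8 cell type marker lists in each library, 8 h left of control within each list, with 1 symbol per replicate number. The 5 genes lie at 226 to 415 CPM at 8 h and 1281 to 4749 CPM in controls, and the NK markers at 7.57 to 46.4 CPM at 8 h and 19.0 to 29.7 CPM in controls, with only 8 h replicate 1 above any control.

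The accessions whose log2 CPM was most alike to each gene over the 6 libraries were looked up across the table, by Pearson's r as a measure of likeness only, with 3 taken per gene. They were Rnpepl1, Mapk3 and Tbp for Gzma, Zfp185, Anxa13 and Asb16 for Gzmb, and Scrib, Borcs7 and Mrpl32 for Prf1. For Nkg7 they were Krtap3-1, Tmem205 and Cts3, and for Klrd1 they were Kcnj8, Cyp11a1 and Tubb2b. All 15 had a likeness of at least 0.962, and between 48 and 85 of the 8308 tested accessions exceeded 0.9 for a given gene. None of the 5 genes was among the 3 most like another. The likeness between the genes themselves was 0.81 for Prf1 and Nkg7 and at most 0.59 for the other 9 pairs, with -0.15 for the granzymes Gzma and Gzmb. All accessions were read in the same 6 libraries, which differed in depth and composition, and these values are given with no test.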

How the data were processed

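Per the labels' protocols, total RNA (PAXgene kit) went into Illumina TruSeq libraries, read singly over 50 bases. What the authors deposited is 1 table of raw read counts, holding 13177 RefSeq accessions and 6 libraries. The submitters' processing notes name Bowtie, R 3.4.2 and GRCm38 without saying what each was used for. The counting program, its handling of reads with several matches, its use of strand and a filter on rows are not stated there. Library totals ranged from 4564010 to 13675127 counts, and limits from a count of 0 cover counting error only, since reads carried no molecular identifiers.

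Accessions were named through a RefSeq table of GRCm38.p6 (12827) or GENCODE M21 (47), and 303 stayed unnamed. The fit across all features used edgeR 4.0.16 in R 4.3.3 (TMM scaling), filterByExpr (8308 accessions kept), the robust quasi-likelihood F test, group as the only term, and Benjamini-Hochberg adjustment at 0.05, two-sided. SE was obtained by dividing the size of the log2 fold change by the square root of F. Alternatives were RLE and upper-quartile scaling, replicate number as a block, no filter, DESeq2 1.42.0 (which gave no adjusted p for 1720 accessions), the newer quasi-likelihood form, limma-voom (limma 3.58.1) and leaving out each replicate. The code was tested on simulated counts.

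The 5 genes, the lists and the alternatives were chosen with earlier results of these data known. Named are the 5 genes, the 4 genes of each list with the highest mean CPM, defining markers, known regulators, listed genes called by edgeR or DESeq2, and the 3 accessions most like each gene in log2 CPM (prior count 2), without pseudogenes and genes that have only a clone or predicted name. A gene named outside this rule is said to be so, apart from the receptor partners Klrc1 to Klrc3, and not every gene the rule allows is given.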

Additional observations from a re-analysis of the deposited data

How the results depend on the processing

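The log2 fold change stayed below 0 for each of the 5 genes in all 14 fits. Its size moved by more than the spread between replicates once, for Nkg7, at -0.28 without control 3. Without each replicate it ranged from -4.64 to -2.45 for Gzma, -3.63 to -1.25 for Gzmb, -5.38 to -3.21 for Prf1, -4.80 to -0.28 for Nkg7 and -2.79 to -1.07 for Klrd1. With the replicate number as a block it was -3.42 for Gzma, -1.44 for Gzmb, -4.23 for Prf1, -2.44 for Nkg7 and -1.94 for Klrd1. Deviations from the group means of libraries with the same number correlated at -0.0107, 0.0151 and -0.0039 across genes, so no pairing by number was seen. Whether the samples were paired is not stated in the labels. The test of edgeR called 0 accessions with and without the block.

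The count of accessions called was 0 with the block, both other scalings, no filter, the newer quasi-likelihood form (984 at an unadjusted p under 0.05), limma-voom (400) and without each replicate (0 to 0), against 399 by DESeq2. DESeq2 called 5 of the 53 listed genes. RLE and upper-quartile scaling left the number of lower genes in every list as it was. The difference in summed share, -0.236 percentage points, ranged from -0.299 to -0.162 without each replicate. It was -0.152 outside the 100 most abundant accessions of each library, where Gzmb in control 1 and Nkg7 in control 3 drop out. There the groups overlapped, since 8 h replicate 2 lay above control 1. The shares were 0.0744%, 0.103% and 0.0609% in 8 h libraries 1 to 3, against 0.0757%, 0.339% and 0.278% in controls 1 to 3. Low counts limit Prf1 and Klrd1 most, with 5 to 56 counts for Prf1 in 4 of the libraries.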
